A study of Homo sapiens with 4 samples.

Results

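The 37 genes of the human mitochondrial genome were followed in RNA precipitated with nuclear SRP9 and in whole-cell RNA of the same cells. They were selected by Ensembl ID, 37 of the 60676 IDs listed, and comprise 13 mRNAs, 2 rRNAs and 22 tRNAs. The cells were MiaPaCa, an established pancreatic cancer cell line. All carried a transfected vector for SRP9, a protein of the signal recognition particle, which was directed to the nucleus by an added localisation signal and carried FLAG for precipitation, with GFP as reporter. They were selected with Geneticin and sorted for GFP, and the labels do not describe them as clones. The lines differed in carrying SRP9 variant 1 or variant 2. For each there was 1 library of co-precipitated RNA (RNA immunoprecipitation, RIP) and 1 library of whole-cell RNA (input). No library from cells without tagged SRP9 or from a precipitation without it was analysed here.

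The mitochondrial genome is a small circle transcribed on both strands from few start points into long precursors. tRNAs lie between most of the mRNAs and rRNAs, and their excision by nucleases releases the neighbouring RNAs. Most genes are encoded on the heavy strand, whereas MT-ND6 and some tRNAs are encoded on the light strand. The mRNAs encode core subunits of the respiratory chain and ATP synthase, and the rRNAs and tRNAs serve the ribosomes inside the organelle. SRP9 is known for binding the Alu domain of the signal recognition particle's own RNA, outside mitochondria.

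The RIP libraries were shallow, with 3921361 counts for variant 1 and 5211354 for variant 2, against 50454080 and 58815384 in the inputs. All 37 genes had counts in every library, and none shared its values with another ID. Between 30 and 34 of the 37 had a count more than 0.001 from a whole number in a given library, against 13.9% to 18.0% of all IDs, and the cause was not tested. All IDs here include those with few or no counts, so these shares are not matched for count level. The sources used here do not give how reads across a gene border, or matching a nuclear copy of a mitochondrial sequence, were counted. Nor is the strand setting, so reads from a gene and from its antisense strand cannot be told apart.

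Mitochondrial RNA took a larger share of the RIP libraries than of the inputs, and its make-up differed. The 37 genes held 6.43% of all counts in RIP variant 1 (95% Clopper-Pearson interval 6.40% to 6.45%) and 5.96% in RIP variant 2 (5.94% to 5.98%). In the inputs they held 4.11% (variant 1) and 4.12% (variant 2). Both RIP shares thus lay above both input shares. A share cannot tell more mitochondrial RNA apart from less of the other RNA. Intervals cover counting error at most, since amplified reads are not independent molecules, and no group has a replicate.

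Within the mitochondrial counts, rRNA was a minor part of the RIP libraries and a major part of the inputs. rRNAs made up 1.61% and 2.21% in RIP variants 1 and 2, and 25.0% and 25.2% in the inputs. tRNAs made up 8.28% and 7.98% in RIP, and 1.10% and 1.02% in the inputs. mRNAs were the largest class everywhere, at 90.1% and 89.8% in RIP and 73.9% and 73.7% in the inputs. These proportions do not depend on how libraries are scaled to each other. The sources used here do not say how libraries were prepared, including any removal of rRNA or selection by size, and its part in these differences was not tested.

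**Figure D1:**
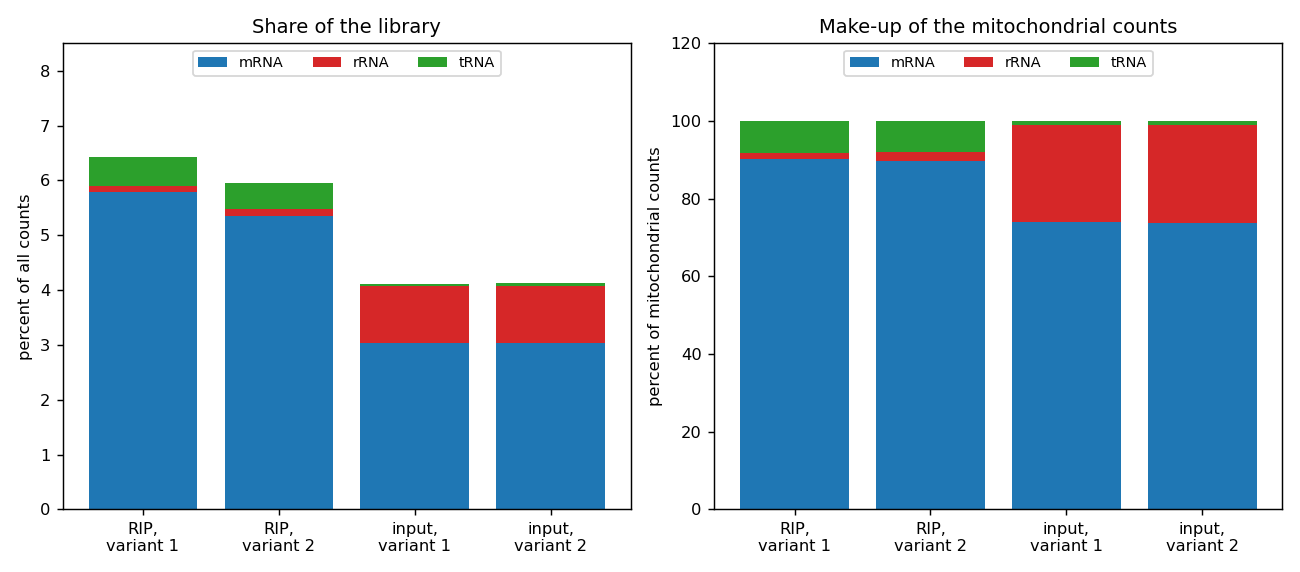
Stacked bars show, for each of the 4 libraries, the percent of all counts (left) and of mitochondrial counts (right) held by mRNAs (blue), rRNAs (red) and tRNAs (green). The RIP bars reach 6.43% and 5.96% of the library with little red, whereas the inputs reach 4.11% and 4.12% with rRNAs at 25.0% and 25.2% of their mitochondrial counts.

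The 10 most abundant IDs of each RIP library were almost all mitochondrial, but most of the top 100 were not. Of the 10 IDs with the highest counts, 10 of RIP variant 1 and 9 of RIP variant 2 were mitochondrial genes, and 3 of each input. Of the top 100, 22 were mitochondrial in each RIP library and 13 in each input. MT-CO1 (ENSG00000198804), a catalytic subunit of cytochrome c oxidase, ranked 1 in both RIP libraries and 7 in both inputs. MT-CYB (ENSG00000198727), the cytochrome b of complex III, ranked 2 in both RIP libraries and 47 and 46 in the inputs of variants 1 and 2. MT-TW (ENSG00000210117), the tRNA for tryptophan, ranked 15 in both RIP libraries, but 9789 and 11241 in the inputs. Counts rank long genes above short ones at equal levels, so these ranks compare libraries, not genes.

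**Figure D2:**
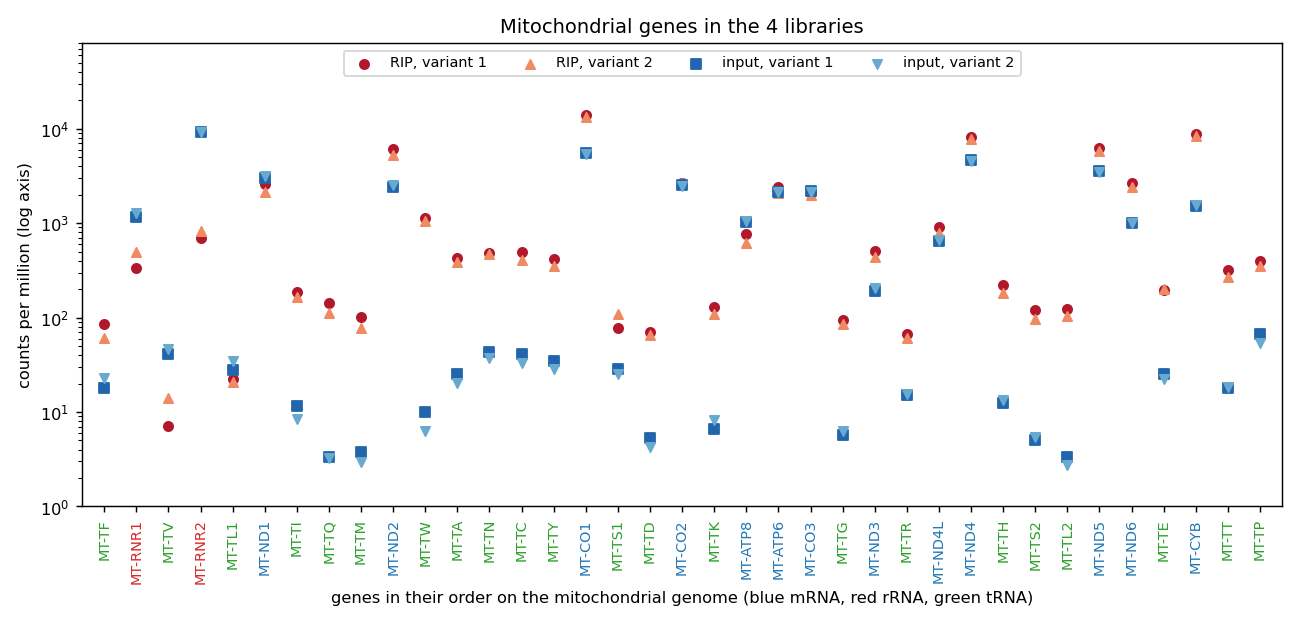
Points show the CPM (counts scaled to a common library total, log axis) of each mitochondrial gene in each of the 4 libraries, with genes in their order on the genome. The inputs stand above both RIP libraries at MT-RNR1, MT-TV, MT-RNR2, MT-TL1, MT-ND1, MT-ATP8 and MT-CO3, while most tRNAs stand above the inputs, with MT-TW furthest at 1140 and 1050 against 10.1 and 6.33.

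The edgeR comparison of RIP with input had 2 libraries a side, 1 from each construct. The constructs differ and are not replicates, and p-values measure only the spread between these libraries. All 37 genes passed the filter on low counts. By edgeR's quasi-likelihood test at a Benjamini-Hochberg adjusted p under 0.05, 18 were higher in RIP, 10 were lower and 9 were not called. Over all 41622 IDs tested, 49.5% were higher and 15.8% were lower, so the 48.6% of mitochondrial genes called higher lies near the background. Among the 15450 IDs that reached 50 counts in each input, all mitochondrial genes included, 8.33% were higher and 42.1% lower. The classes differed from each other, with 17 of 22 tRNAs higher and 2 lower, 1 of 13 mRNAs higher and 6 lower, and 2 of 2 rRNAs lower. The median log2 fold change was 2.69 for tRNAs, -0.41 for mRNAs and 3.65 over all tested IDs.

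The position of zero depends on the scaling between libraries. The test used TMM, which scales libraries on a trimmed mean of log ratios. On that scale neither all tested IDs (median 3.65) nor those with 50 counts in both inputs (median -1.15) centred on 0, so 0 is not the level of a typical ID. Scaling on library totals raised the log2 fold changes, with a median over all tested IDs of 4.83. On library totals 27 mitochondrial genes were higher and 4 lower (7 mRNAs higher and 1 lower), beside 57.9% and 7.82% of all tested IDs. On the mitochondrial genes' own summed count, 25 were higher and 8 lower, beside 53.3% and 11.6% of all tested IDs. The order of the genes among themselves is not affected by the scaling. The calls of 15 of the 18 higher genes (exceptions MT-CYB, MT-TD and MT-TP) held under all 14 alternatives run. Of the 10 lower genes, 3 held under all 14 (MT-RNR1, MT-RNR2 and MT-TV). Of the 9 genes not called, 0 stayed so under all 14.

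**Figure D3:**
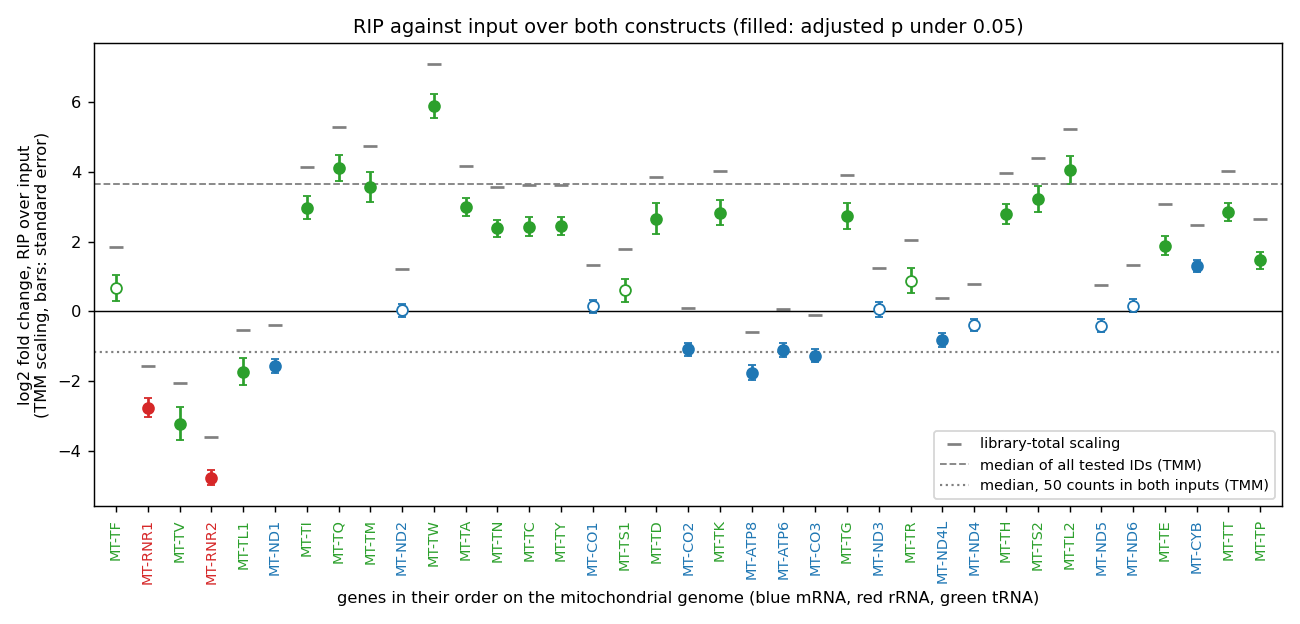
Points show the log2 fold change of RIP over input (TMM scaling, edgeR, bars for the standard error, filled where the adjusted p is under 0.05) for genes in their order on the genome. Grey dashes give the same on library totals, and horizontal lines the median of all tested IDs (3.65) and of those with 50 counts in both inputs (-1.15). MT-RNR2 at -4.75 and MT-TW at 5.88 mark the ends of the range.

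The rRNAs were the most depleted class. MT-RNR2 (ENSG00000210082), the RNA of the large mitochondrial ribosomal subunit, had 704 and 826 CPM in RIP variants 1 and 2, and 9123 and 9138 CPM in the inputs. Both RIP values lay far below both inputs, with a log2 fold change of -4.75 ± 0.22 (standard error; edgeR adjusted p = 0.000594). MT-RNR1 (ENSG00000211459), the RNA of the small subunit, had 334 and 489 CPM in RIP and 1172 and 1268 CPM in the inputs, without overlap. Its log2 fold change was -2.74 ± 0.26 (edgeR adjusted p = 0.000943). Counts of MT-RNR2 were 7.79 and 7.21 times those of MT-RNR1 in the inputs, but 2.11 and 1.69 times in RIP of variants 1 and 2. Relative to the mitochondrial total, MT-RNR2 in RIP stood at 0.0494 (variant 1) and 0.0625 (variant 2) times its input share.

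Among 12 mitochondrial genes above 1000 CPM in both inputs, the median log2 fold change was -1.10, with 1 higher, 7 lower and 4 not called (edgeR). The 71 other tested IDs above that level had a median of -3.97, with 97.2% lower and 0% higher. Scaling moves both medians alike.

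Of the mRNAs, MT-CYB was the only 1 of 13 called higher by the edgeR test over 41622 IDs, on TMM scaling. It had 8828 and 8268 CPM in RIP variants 1 and 2, and 1505 and 1566 CPM in the inputs. The RIP values lay above both inputs, and its log2 fold change was 1.30 ± 0.19 (edgeR adjusted p = 0.00303). A block for the construct left its edgeR adjusted p at 0.0506, and without the input of variant 2 it was 1.11 with an adjusted p of 0.0669. Within a library, MT-CYB had 3.37 and 3.88 times the counts of MT-ND1 in RIP of variants 1 and 2, and 0.498 and 0.493 times in the inputs. This ratio does not depend on scaling. In other edgeR fits on TMM scaling MT-CYB was not alone. With at least 50 counts in 2 libraries, 4 mRNAs were higher and 5 lower, beside 8195 and 4807 of 23326 IDs. Where IDs with 50 counts in both inputs were fitted alone, 7 mRNAs were higher and 0 lower, beside 3421 and 3658 of 15450 IDs.

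Subunits of complex I, the NADH dehydrogenase, fell into separate levels. MT-ND1 (ENSG00000198888) had 2620 and 2133 CPM in RIP and 3024 and 3179 CPM in the inputs, and was lower in RIP with a log2 fold change of -1.56 ± 0.21 (edgeR adjusted p = 0.00241). It was not called on library totals, where its log2 fold change was -0.38, nor where IDs with 50 counts in both inputs were fitted alone (-0.44). MT-ND4L was also lower at -0.80 ± 0.20 (edgeR adjusted p = 0.0137), but at 906 and 795 CPM its RIP values exceeded the inputs' 648 and 666 CPM, and on library totals its value was 0.37. Its call was lost with a block for the construct (edgeR adjusted p = 0.0818), without the input of variant 1 (0.141) and without that of variant 2 (0.0714). MT-ND4L kept its call under 5 of the 14 alternatives. It was also not called with DESeq2 size factors (edgeR adjusted p = 0.0852), the DESeq2 Wald test (adjusted p = 0.0735), at least 50 counts in 2 libraries (edgeR adjusted p = 0.219) or the mitochondrial total (edgeR adjusted p = 0.301).

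The remaining complex I mRNAs were not called by the edgeR test over 41622 IDs on TMM scaling. MT-ND2, MT-ND3 and MT-ND6 had log2 fold changes of 0.04, 0.06 and 0.16, and MT-ND4 and MT-ND5 of -0.38 and -0.41. On library totals MT-ND2, MT-ND3, MT-ND6, MT-ND4 and MT-ND5 were called higher by edgeR, at 1.21, 1.24, 1.34, 0.79 and 0.77. On that scale 57.9% of all tested IDs were higher, and the median over all tested IDs was 4.83. Where IDs with 50 counts in both inputs were fitted alone, the same genes were higher, at 1.15, 1.18, 1.28, 0.74 and 0.71. Their edgeR adjusted p ran from 0.00342 to 0.0270, and 3421 of 15450 IDs were higher there and 3658 lower. With at least 50 counts in 2 libraries, MT-ND2 (0.56, edgeR adjusted p = 0.0445) and MT-ND6 (0.68, edgeR adjusted p = 0.0230) were higher, beside 8195 of 23326 IDs. With limma-voom on TMM scaling, MT-ND4 and MT-ND5 were instead called lower, at -0.40 (limma adjusted p = 0.00651) and -0.42 (limma adjusted p = 0.0359). MT-ND6, the light-strand mRNA, had 2646 and 2415 CPM in RIP and 1007 and 994 CPM in the inputs. Its counts relative to MT-CYB, the next mRNA on the genome, were 0.300 and 0.292 in RIP and 0.669 and 0.634 in the inputs.

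The subunits of cytochrome c oxidase did not move alike. MT-CO1 had 13976 and 13249 CPM in RIP and 5520 and 5379 CPM in the inputs, with a log2 fold change of 0.14 ± 0.18 (edgeR adjusted p = 0.495). On library totals MT-CO1 was at 1.32 and called higher, as were 57.9% of all tested IDs. It was also higher where IDs with 50 counts in both inputs were fitted alone (1.26, edgeR adjusted p = 0.00320), as were 3421 of 15450 IDs. With at least 50 counts in 2 libraries (0.67), the DESeq2 Wald test (0.48), the mitochondrial total (0.73) and the mRNA total (0.45) MT-CO1 was called higher too. It stayed uncalled under 8 of the 14 alternatives. MT-CO2 had 2650 and 2670 CPM in RIP and 2517 and 2477 CPM in the inputs. MT-CO3 had 2061 and 2002 CPM in RIP, below 2207 and 2122 CPM in the inputs. MT-CO2 and MT-CO3 were lower on TMM scaling, at -1.09 ± 0.18 (edgeR adjusted p = 0.00497) and -1.27 ± 0.19 (edgeR adjusted p = 0.00340). On library totals both lay near 0, at 0.09 and -0.09, and were not called, nor were they in the fit of IDs with 50 counts in both inputs (0.03 and -0.15). A block for the construct put MT-CO2 at an edgeR adjusted p of 0.0665.

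Both mRNAs of ATP synthase subunits, which overlap by 46 bases and can share reads, were lower on TMM scaling, and only MT-ATP8 was lower on library totals. MT-ATP8 had 776 and 618 CPM in RIP and 1021 and 1053 CPM in the inputs, without overlap. It had the lowest log2 fold change of the mRNAs, at -1.75 ± 0.22 (edgeR adjusted p = 0.00205), and was also lower on library totals, at -0.57. Its call was lost where IDs with 50 counts in both inputs were fitted alone, at -0.63 (edgeR adjusted p = 0.0573). MT-ATP6 had 2396 and 2066 CPM in RIP and 2136 and 2128 CPM in the inputs, so the groups overlapped in CPM. Its log2 fold change was -1.11 ± 0.20 (edgeR adjusted p = 0.00551), with 0.07 on library totals and 0.01 in the fit of IDs with 50 counts in both inputs, where it was not called. A block for the construct put MT-ATP6 at an edgeR adjusted p of 0.0572.

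The tRNAs were low in the inputs and, for most, far higher in RIP. Over all 22, the inputs held 451 and 421 CPM and the RIP libraries of variants 1 and 2 held 5320 and 4757 CPM. Their share of the mitochondrial counts was 7.55 times (variant 1) and 7.82 times (variant 2) that of the inputs. The test called 17 of 22 higher (77.3%), beside 49.5% of all tested IDs and 8.33% of those with 50 counts in both inputs. tRNA genes are short, a read in one can come from a longer precursor, and mature tRNA and precursor cannot be told apart here. Of the 22 tRNAs, 18 to 22 in each library had a fractional count.

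MT-TW had the largest log2 fold change of the 37 genes. It had 4470 and 5471 counts (1140 and 1050 CPM) in RIP of variants 1 and 2, and 507 and 372 counts (10.1 and 6.33 CPM) in the inputs. Its log2 fold change was 5.88 ± 0.35 (edgeR adjusted p = 0.000597), and it was the highest of the 37 genes by counts per kb in both RIP libraries. Relative to the mRNA MT-ND2 just before it on the genome, its counts were 0.187 and 0.200 in RIP and 0.00420 and 0.00252 in the inputs.

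MT-TW opens a run of 5 neighbouring tRNA genes between MT-ND2 and MT-CO1, in which the other 4 (MT-TA, MT-TN, MT-TC and MT-TY, for alanine, asparagine, cysteine and tyrosine) are encoded on the light strand. These 4 were all higher, with log2 fold changes of 2.99, 2.37, 2.43 and 2.43 (edgeR adjusted p from 0.000797 to 0.00136). They lay at 413 to 498 CPM with variant 1 and 353 to 471 CPM with variant 2 in RIP, against 20.4 to 43.4 CPM in the inputs. The run of 5 held 55.6% and 56.2% of the tRNA counts in RIP, and 34.1% and 29.9% in the inputs. MT-TW had 2.66 and 2.69 times the counts of its neighbour MT-TA in RIP, but 0.400 and 0.310 times in the inputs.

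Other runs of tRNA genes were higher as well. The run of MT-TI, MT-TQ and MT-TM, for isoleucine, glutamine and methionine, rose from 18.5 and 14.6 CPM in the inputs to 429 and 355 CPM in RIP. MT-TQ in this run had 143 and 113 CPM in RIP and 3.33 and 3.28 CPM in the inputs, with a log2 fold change of 4.09 ± 0.37 (edgeR adjusted p = 0.000848). The run of MT-TH, MT-TS2 and MT-TL2, for histidine, serine and leucine, rose from 20.9 and 21.7 CPM to 467 and 381 CPM. Its member MT-TL2 had 124 and 103 CPM in RIP and 3.35 and 2.74 CPM in the inputs, with a log2 fold change of 4.05 ± 0.39 (edgeR adjusted p = 0.00101). In both runs all 3 tRNAs were called higher.

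The other tRNAs called higher stand alone or in pairs. MT-TK (lysine), MT-TG (glycine), MT-TD (aspartate) and MT-TT (threonine) had log2 fold changes of 2.83, 2.73, 2.66 and 2.84. MT-TE (glutamate) and MT-TP (proline), both on the light strand, had 1.88 and 1.46. The call of MT-TD was lost without RIP variant 1 (edgeR adjusted p = 0.0528) and that of MT-TP without the input of variant 2 (edgeR adjusted p = 0.0769). MT-TF, MT-TS1 and MT-TR, for phenylalanine, serine and arginine, were not called, with log2 fold changes of 0.67, 0.61 and 0.88. All 3 were called higher on library totals, as were 57.9% of all tested IDs. They were also higher with at least 50 counts in 2 libraries (1.18, 1.13 and 1.40), beside 8195 of 23326 IDs. Where IDs with 50 counts in both inputs were fitted alone they were higher (1.78, 1.72 and 2.00), beside 3421 of 15450 IDs. MT-TF, MT-TS1 and MT-TR stayed uncalled under 9, 7 and 6 of the 14 alternatives.

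The lower tRNAs were the 2 that border MT-RNR2. MT-TV (ENSG00000210077, valine), between the rRNA genes, had 27.8 and 73.7 counts in RIP variants 1 and 2, which is 7.10 CPM (95% exact Poisson interval 4.74 to 10.3) and 14.1 CPM (11.1 to 17.8). The inputs had 40.7 and 47.0 CPM, above both, and the log2 fold change was -3.21 ± 0.47 (edgeR adjusted p = 0.00327). MT-TL1 (leucine), just after MT-RNR2, had 22.1 and 20.5 CPM in RIP and 27.8 and 34.4 CPM in the inputs. Its log2 fold change was -1.72 ± 0.39 (edgeR adjusted p = 0.0106), but -0.54 and not called on library totals. Its call was also lost without RIP variant 2 (edgeR adjusted p = 0.0526), on the mitochondrial total (edgeR adjusted p = 0.0511) and where IDs with 50 counts in both inputs were fitted alone (edgeR adjusted p = 0.225).

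The genes were also read along the genome. Of the first 6 genes in order, MT-TF to MT-ND1, 5 were lower and MT-TF was not called. Lower calls took 15.8% of all tested IDs and 42.1% of those with 50 counts in both inputs. The stretch from MT-TF to MT-ND1 was marked off after its values were seen. It held 32.6% and 33.2% of the mitochondrial counts in the inputs, and 5.87% and 5.94% in RIP. Beyond MT-ND1, 17 of 19 tRNAs were higher and 0 lower by the edgeR test (0 lower also in the DESeq2 and limma-voom fits). The edgeR shares over all tested IDs were 49.5% higher and 15.8% lower. Of the 12 mRNAs beyond MT-ND1, 1 was higher (8.33%) and 5 lower (41.7%) on TMM scaling. In this fit shares were alike among IDs reaching 50 counts in each input (8.33% higher, 42.1% lower), a set not matched to these mRNAs for level. Of the 71 other tested IDs above 1000 CPM in both inputs, 0% were higher and 97.2% lower. MT-ND3, MT-ND4L and MT-ND6 did not reach that level in both inputs. Where IDs with 50 counts in both inputs were fitted alone, 7 of all 13 mRNAs were higher and 0 lower. In that fit 3421 of 15450 IDs were higher and 3658 lower, so the likeness of shares depended on the fit. By strand, in the fit over all tested IDs, 7 of 8 light-strand tRNAs were higher and 0 lower. Of the 14 heavy-strand tRNAs, 10 were higher and 2 lower in that fit, beside 49.5% and 15.8% of all tested IDs. Light-strand tRNAs held 49.5% and 50.4% of the tRNA counts in RIP variants 1 and 2, and 59.3% and 53.4% in the inputs. The difference between the strands was not tested.

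Levels per gene length ordered the genes differently in the fractions. Gene lengths were taken from the RefSeq table of GRCh38.p14, and a short gene catches reads that extend beyond it, which raises its value per kb. In the inputs MT-RNR2 was highest, at 5852 and 5861 CPM per kb, followed by MT-ATP8 at 4933 and 5086. In the RIP libraries MT-TW (16762 and 15440 CPM per kb), MT-CO1 (9064 and 8592) and MT-CYB (7737 and 7247) came first, while MT-RNR2 ranked 34 of 37 in both. The mRNAs spanned a range of 6.16 and 6.85 times in RIP and of 8.84 and 8.53 times in the inputs. MT-ND3 was the lowest mRNA per kb in all 4 libraries.

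Across the 37 genes, the mean log2 ratio of RIP over input had a Spearman correlation of -0.84 with the input level per kb. Within the 13 mRNAs it was -0.59 and within the 22 tRNAs -0.74. These are descriptions, since the input enters both measures and the genes share libraries and precursors. The fall with input level was not particular to these genes. The median log2 fold change was 3.65 over all tested IDs and -1.15 for those with 50 counts in both inputs. It was -3.97 for the other IDs above 1000 CPM in both inputs. In the inputs the tRNAs lay at 2.74 to 66.2 CPM and the mRNAs at 193 to 5520 CPM. Among these genes, tRNA or mRNA class and input level thus cannot be separated. With gene length the correlation was -0.65 over all 37 genes, but 0.35 within mRNAs and -0.12 within tRNAs, so length followed the classes.

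Each construct gave nearly the same picture by itself. RIP over its own input was at least 2-fold higher for 19 genes with variant 1 and 18 with variant 2, and at least 2-fold lower for 9 with each, on TMM scaling. Among all tested IDs, 63.1% and 64.4% were 2-fold higher and 23.1% and 21.2% 2-fold lower. The log2 ratios of the separate constructs correlated across genes at a Pearson r of 0.99 (n = 37 genes), and of 0.99 within mRNAs and 0.98 within tRNAs. The genes share libraries and precursors and are not replicates. MT-RNR2 was the lowest with both variants, at -4.88 and -4.64, and MT-TW the highest, at 5.64 and 6.19.

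**Figure D4:**
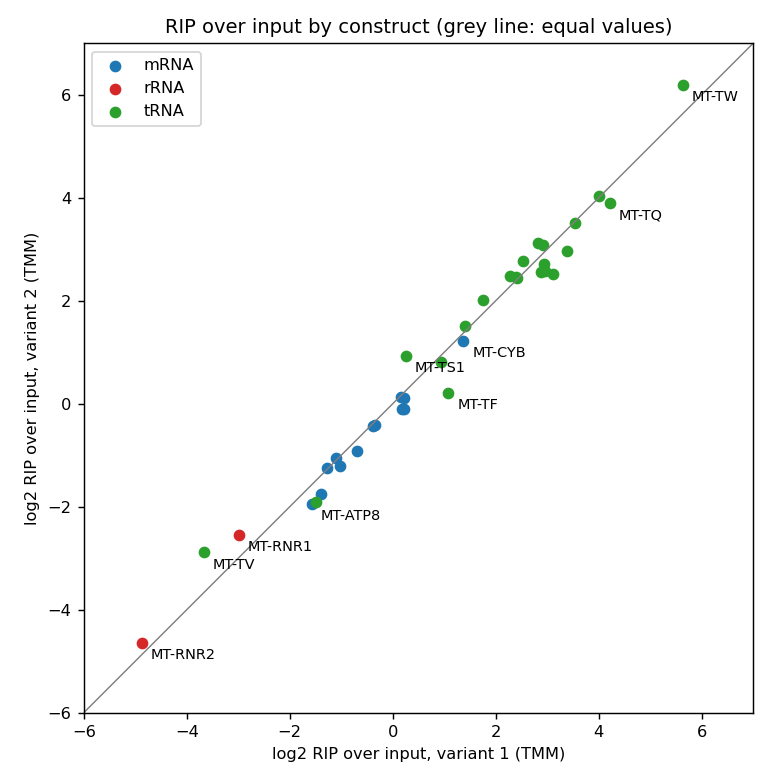
Each point is a mitochondrial gene, with the log2 ratio of RIP over input for variant 1 on the x axis and for variant 2 on the y axis (TMM scaling, 1 library a side). Points lie close to the grey line of equal values from MT-RNR2 (-4.88 and -4.64) to MT-TW (5.64 and 6.19), with MT-TF, MT-TV and MT-TS1 among those further from it.

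The variants were compared with 1 library a side, without a test. Between the RIP libraries 0 of 37 genes were 2-fold apart (1 on the mitochondrial total, MT-TV at -1.09), while 18.7% of all tested IDs were 2-fold higher and 22.8% 2-fold lower in RIP variant 1. Between the inputs 0 of 37 were 2-fold apart, beside 14.1% and 10.8%. These shares over all tested IDs are not matched for counts. MT-TV, at 27.8 counts in RIP variant 1, ranked 26532 there, and 41622 IDs were tested, so many had fewer counts and noisier ratios. No background at like counts was computed. On TMM scaling all 13 mRNAs had log2 ratios above 0 for RIP variant 1 over RIP variant 2, from 0.003 (MT-CO2) to 0.34 (MT-ATP8). On library totals MT-CO2 turned to -0.01 and the other 12 stayed above 0, and on the mitochondrial total 7 of the 13 were above 0. The input ratios of the mRNAs lay between -0.07 and 0.08.

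The largest differences between the RIP libraries were at MT-TV, MT-RNR1, MT-TF and MT-TS1. MT-TV was 1.99 times higher by CPM in RIP variant 2 than in RIP variant 1, MT-RNR1 was 1.47 times higher and MT-RNR2 was 1.17 times higher. In the inputs the same ratios of variant 2 over variant 1 were 1.15, 1.08 and 1.00. MT-TS1 was also higher in RIP variant 2, at 108 CPM (95% exact Poisson interval 99.5 to 118) against 77.8 CPM (69.3 to 87.0). MT-TF went the other way, with RIP variant 1 at 86.4 CPM (77.5 to 96.2) above RIP variant 2 at 60.1 CPM (53.6 to 67.1). In the inputs MT-TF was lower with variant 1, at 18.0 against 22.9 CPM. None of these differences has a replicate check.

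**Figure D5:**
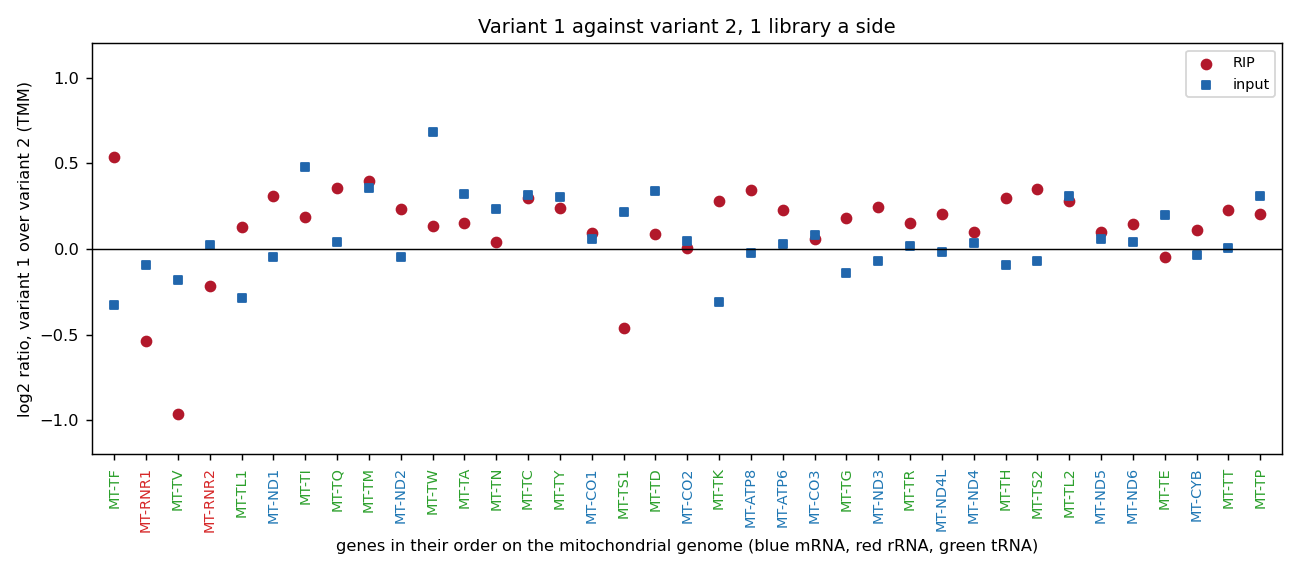
Points show the log2 ratio of variant 1 over variant 2 between the RIP libraries (red circles) and between the inputs (blue squares) for genes in their order on the genome, on TMM scaling. MT-TV (-0.96), MT-RNR1 (-0.54) and MT-TS1 (-0.46) are the lowest RIP values and MT-TF (0.54) the highest, while the largest input value is that of MT-TW (0.68).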

How the data were processed

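Per the file headers, the authors deposited estimated counts for each Ensembl ID, made by counting aligned reads and left without scaling. HISAT2 2.1.0, featureCounts, Subread 2.0.0 and GRCh38.p13 are named in the submitters' processing notes. The sources used here do not give the annotation release or counting options. Totals ran from 3921361 to 58815384 counts.

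Genes and lists were chosen with earlier results of these data known. All 37 genes were to be accounted for, with the mRNAs, the rRNAs and tRNAs of at least 50 counts in a library named. Groupings by strand, tRNA run and genome order were added after values were seen. Values were rounded and fitted over all IDs with edgeR 4.0.16 in R 4.3.3 (TMM, filterByExpr by fraction with a minimum count of 10, quasi-likelihood test, Benjamini-Hochberg over 41622 IDs). Standard errors are the log2 fold change over the root of F. Single-library ratios used a prior count of 2. On simulated counts (41456 IDs, dispersion 0.05) 200 better-expressed IDs were changed 4-fold, in equal numbers up and down. This test recovered 95.5% of them, with 13 false calls. In the data 49.5% of tested IDs were higher and 15.8% lower, so the simulation does not show how the test fares under such a shift. Alternatives included limma 3.58.1 and DESeq2 1.42.0.

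Each input is labelled as the whole-cell RNA of 1 RIP experiment, which pairs it with that library. Construct differences in RIP and in input correlated at -0.0045 over all tested IDs and 0.05 over the 37 genes. RefSeq gave gene order and length for 37 of 37 genes by symbol. It pairs no Ensembl ID with a name, so the list of nuclear genes for mitochondrial RNA, nuclear copies of the genes, and cell line markers were not computed.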

Additional observations from a re-analysis of the deposited data

Results flagged for a closer look

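Of the 37 genes, 2 had RIP over input above 0 with variant 1 and below 0 with variant 2 on TMM scaling. The difference between the variants was not tested, because each value rests on 1 library a side. For MT-ND2 the log2 ratios were 0.17 and -0.11, a difference of 0.28. For MT-ND3 they were 0.22 and -0.10, a difference of 0.32. On library totals all 4 ratios were above 0.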

How the results depend on the processing

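The higher calls (18) and the lower calls (10) of the 37 genes stayed within 1.5 times under DESeq2 size factors, no filter, at least 50 counts in 2 libraries, the DESeq2 Wald test, limma-voom, the mitochondrial total or the mRNA total as library size (both chosen after seeing the data), and the construct as replicate block (17 higher, 7 lower). The lower calls fell to 4 on library totals and to 3 when IDs with 50 counts in both inputs were fitted alone. Leaving out 1 library gave 16 to 18 higher and 9 to 10 lower calls. Such a fit takes the spread of the remaining fraction for the single library.

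Only mRNAs turned direction. On library totals MT-ATP6 (0.065), MT-CO2 (0.091), MT-ND4 (0.79), MT-ND4L (0.37) and MT-ND5 (0.77) were above 0, as they were in the fit of IDs with 50 counts in both inputs (0.0077, 0.033, 0.74, 0.32 and 0.71). MT-ND4 and MT-ND5 were also above 0 with at least 50 counts in 2 libraries (0.14 and 0.11) and on the mitochondrial total (0.21 and 0.18). Without a filter MT-CO1 (-0.058), MT-ND2 (-0.16), MT-ND3 (-0.13) and MT-ND6 (-0.040) were below 0, and MT-ND2 was at -0.0014 with limma-voom. With 1 library left out, MT-CO1 lay between -0.10 and 0.19, MT-ND2 between -0.15 and 0.15, MT-ND3 between -0.11 and 0.18 and MT-ND6 between -0.072 and 0.23. None of these 4 was called there.

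The median log2 ratio over the 37 genes was 1.08 (variant 1) and 0.93 (variant 2) on TMM, 1.42 and 1.26 with DESeq2 size factors, 1.62 and 1.57 on the mitochondrial total, 2.26 and 2.1 on library totals and 2.29 and 2.13 on totals without the mitochondrial genes. Without the rRNAs, the mitochondrial share was 6.33% and 5.84% in RIP variants 1 and 2 and 3.12% and 3.11% in the inputs, and tRNAs held 8.41%, 8.16%, 1.46% and 1.37% of it. The cause of each change was not tested beyond the scaling itself. The RIP depth limits MT-TV most, with 27.8 counts in RIP variant 1.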
